A study of Arabidopsis thaliana with 2 samples.

Results

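Peaks of the transcription factor ERF115 were examined at 5 Arabidopsis thaliana genes that encode components of MAP kinase and calcium signalling: the kinase genes MAPKKK17 (AT2G32510), MAPKKK20 (AT3G50310), CPK9 (AT3G20410) and CPK25 (AT2G35890), and the calcium sensor gene CBL1 (AT4G17615). The genes were picked by locus from the deposited annotated peak list, where the authors had assigned a peak to each, so having a peak is how they were chosen and not a result. They are 5 of the 608 loci assigned to the 612 peaks of the list. CBL1 is carried in the authors' table under the symbol SCABP5 and encodes a calcium-binding protein without a kinase domain, so 4 of the 5 genes are kinase genes.

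ERF115 is an AP2/ERF-type transcription factor. With the HBH affinity tag joined to it and the constitutive 35S promoter driving it, the protein was produced in PSB-D suspension cells, a dark-grown culture of the Landsberg erecta ecotype (genotype 35S::ERF115-HBH). Wild-type PSB-D cells without the tagged protein served as the mock purification. Cells of both groups grew with the auxin NAA and the cytokinin kinetin, were fixed with 0.75% formaldehyde for 10 minutes and collected 2 days after subculturing, and each group is 1 library. The 35S promoter is active well beyond the cells in which a factor is normally made, and the labels do not say whether the culture came from 1 transformed line. The identity of the cells was not checked, since a peak list holds no expression values. Read depth and values from the mock were not analysed here. With 1 library a group there was no replicate check, and no test was run on these peaks.

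A MAP kinase cascade passes a signal along 3 tiers of kinases: a MAP kinase kinase kinase (MAPKKK) phosphorylates a MAP kinase kinase (MKK), which phosphorylates a MAP kinase (MPK). Calcium signals are read in plants by several kinds of protein. Calcium-dependent protein kinases (CPKs) join a kinase domain and a calcium-binding domain in 1 protein, whereas calcineurin B-like proteins (CBLs) bind calcium and then act through partner kinases, the CIPKs. Both kinds of pathway are known for roles in responses to abscisic acid, salt, drought and pathogens.

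Among the 5 genes, MAPKKK17 had the peak with the highest score and CPK25 the lowest. The peak score is the value that the program MACS gives each peak, 10 times the negative log10 of its p-value, as the authors deposited it. It was used to describe and rank peaks within this list. The scores were 128.13 at MAPKKK17, 81.46 at MAPKKK20, 77.27 at CPK9, 67.74 at CBL1 and 51.25 at CPK25. The median of these 5 scores was 77.27, beside 78.9 over all 612 peaks, whose quartiles were 60.6 and 113.6. MAPKKK17 lay above the upper quartile of the list, CPK25 below the lower quartile, and the others between the quartiles. The score of MAPKKK17 was 46.67 above that of MAPKKK20, a larger step than the 30.21 that separated MAPKKK20 from CPK25. Without replicates the spread of a score is unknown, so whether neighbours in this order, such as MAPKKK20 and CPK9, differ beyond error was not tested.

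**Figure D1:**
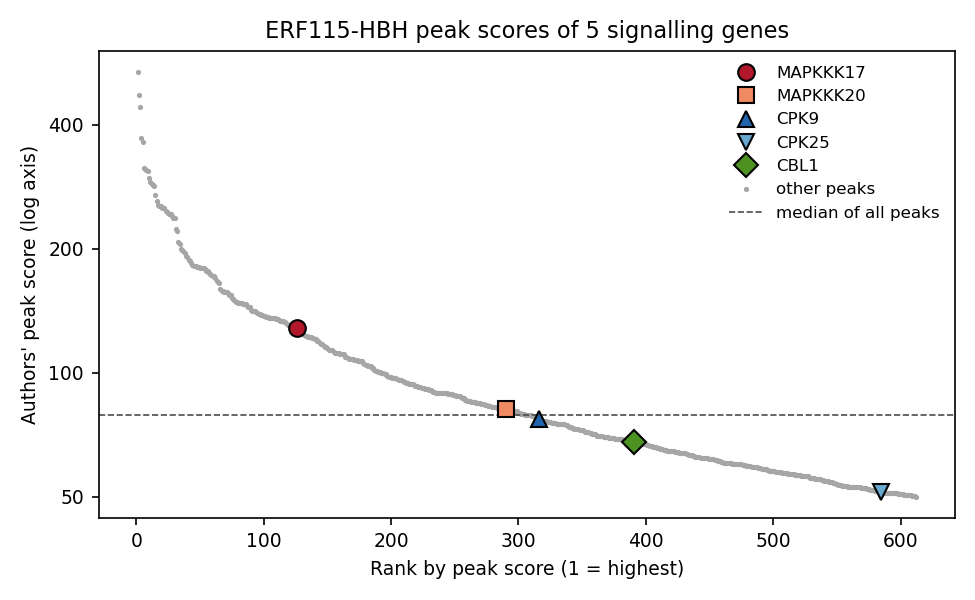
The authors' peak score (vertical, log axis) against the rank of each of the 612 peaks (horizontal, 1 is the highest score), with the peaks of the 5 genes as large symbols and the other peaks as grey points. MAPKKK17 stands at rank 126 and MAPKKK20 at rank 290, above the dashed median of 78.9, while CPK9, CBL1 and CPK25 lie below it at ranks 316, 391 and 585.

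MAPKKK17 encodes a MEKK-type MAPKKK known to act in abscisic acid signalling through MKK3. Its peak lay on chromosome 2 (TAIR10) from 13798035 to 13801039, was 3005 bp wide and carried the label coding 3', with the authors' position inside the peak at 13798949. The label places that position in the coding part of the gene, and the files do not state the rule behind 5' and 3'. The score ranked 126 of 612 in the whole list and 13 of the 64 peaks labelled coding 3', whose median was 81.87. Among the 76 peaks of chromosome 2 it ranked 22. Of the 5 genes only MAPKKK17 had a score of at least 100, a level reached by 192 peaks of the list.

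MAPKKK20 encodes a relative of MAPKKK17 known for roles in osmotic stress and abscisic acid responses and in cortical microtubule function in roots. Its peak lay on chromosome 3 from 18648204 to 18650077, was 1874 bp wide and was labelled coding 5', with the authors' position at 18648869. Its score ranked 290 of 612 in the whole list, 31 of the 62 peaks labelled coding 5' (median 81.24) and 78 of the 172 peaks on chromosome 3 (median 77.80). The peak thus stood near the middle of the list by each of these measures. Both MAPKKK genes had their position inside coding sequence, one with the 3' and the other with the 5' label.

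CPK9 encodes a plasma membrane CPK known for a role in stomatal movement. Its peak lay on chromosome 3 from 7115226 to 7116634, was 1409 bp wide and was labelled intergenic 5', with the authors' position at 7115860. Its score ranked 316 of 612 in the whole list, 140 of the 275 peaks labelled intergenic 5' (median 78.05) and 88 of 172 on chromosome 3, so it too lay near the middle. The label intergenic 5' was the most frequent in the list, and of the 5 genes only CPK9 carried it.

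CPK25 encodes a CPK whose calcium-binding domain is degenerate, and its kinase activity is known to be independent of calcium. Its peak lay on chromosome 2 from 15065666 to 15066935, was 1270 bp wide and was labelled intergenic 3', with the authors' position at 15066306. The score ranked 585 of 612 in the whole list, 114 of the 117 peaks labelled intergenic 3' (median 75.37) and 73 of 76 on chromosome 2 (median 89.96). In the whole list 27 peaks scored lower, and the lowest score deposited was 50.01. A score of 51.25 corresponds to a negative log10 p-value of 5.125, so this gene was assigned through a peak close to the lower end of what was deposited.

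CBL1 encodes a calcium sensor that recruits CIPK partners, among them CIPK1 and CIPK23, to the plasma membrane. Its peak lay on chromosome 4 from 9817242 to 9818534, was 1293 bp wide and was labelled intron 5', with the authors' position at 9817887. The score ranked 391 of 612 in the whole list and 8 of the 13 peaks labelled intron 5', whose median was 84.38. On chromosome 4, where the median of 74 peaks was 67.70, it ranked 37.

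The 5 peaks carried 5 different location labels. Of the 5, 3 had a position inside a gene (coding 3', coding 5' and intron 5') and 2 an intergenic one, beside 35.9% of all peaks with a label inside a gene. A 5' label was carried by 3 and a 3' label by 2, beside 65.2% of all peaks with a 5' label, and nothing is read from counts this small. Each gene had 1 peak, like 604 of the 608 loci. None of the 5 peaks carried the mark TP, which the files do not explain and which stands beside 3.59% of all peaks in the authors' deposited table.

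All but 1 of the 5 peaks were narrower than the median peak of the list, MAPKKK20 only slightly so at 1874 bp. Nothing is read from counts this small. Their widths had a median of 1409 bp, beside 1893.5 bp over all peaks (quartiles 1372 and 2901 bp). Of the 5 only MAPKKK17 was above that median, at width rank 141 of 612. MAPKKK20 followed at rank 311, CPK9 at 448, CBL1 at 510 and CPK25 at 532. The order by width was the order by score among these 5, whereas over all 612 peaks score and width were only weakly related (Spearman's rho = 0.10, given as a description, since all peaks come from 1 library).

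**Figure D2:**
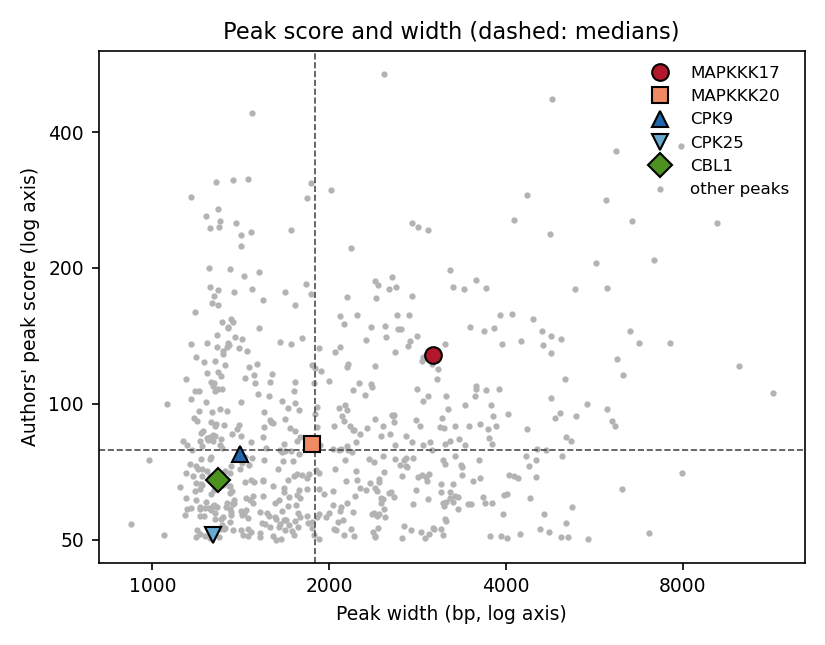
The authors' peak score (vertical, log axis) against peak width in bp (horizontal, log axis) for the 5 genes (large symbols) and the other peaks (grey points), with dashed lines at the medians of 78.9 and 1893.5 bp. MAPKKK17, at 3005 bp and 128.13, is in the upper right quadrant, and CPK9, CBL1 and CPK25 are in the lower left quadrant.

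The authors' position sat close to the middle of the narrowest of the 5 peaks, CPK25 and CBL1. It was off centre in the widest of the 5, MAPKKK20 and MAPKKK17. At CBL1 it was 645 bp from the lower and 647 bp from the higher coordinate edge, and at CPK25 it was 640 and 629 bp from these edges. At CPK9 the distances were 634 and 774 bp, and at MAPKKK20 they were 665 and 1208 bp. At MAPKKK17 they were 914 and 2090 bp, so most of that peak lay on the side of higher coordinates. The distance to the nearer edge was between 600 and 700 bp in 4 of the 5 peaks and in 38.9% of all peaks, with a median over all peaks of 652 bp. This window was not planned in advance, so nothing is read from the 4 of 5. With the nearer edge at such a distance, peaks as narrow as CPK25 and CBL1 are centred by arithmetic. The contrast with the wider peaks is therefore not a separate result.

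**Figure D3:**
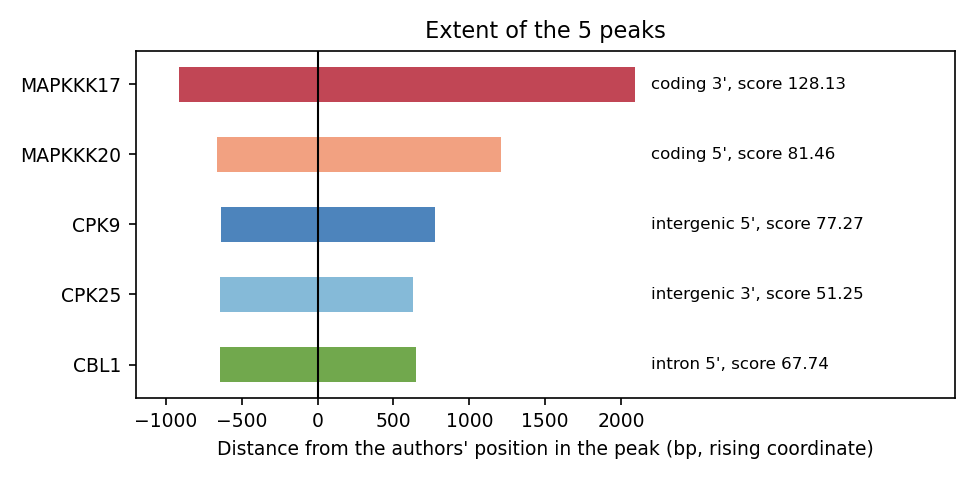
Extent of the peak at each of the 5 genes in bp along rising chromosome coordinate, aligned at the authors' position (vertical line at 0), with the location label and score beside each bar. The bars of CPK25 and CBL1 are nearly symmetric, and that of MAPKKK17 reaches 2090 bp to the right against 914 bp to the left.

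Other peaks lay near 3 of the 5. Another peak was under 20 kb away, edge to edge, for MAPKKK17, MAPKKK20 and CPK25, beside 35.6% of all peaks in the list with such a neighbour. None of the 5 had one under 10 kb, beside 22.4% of all peaks, and the same 3 genes had one under 50 kb, beside 57.8%. The peak nearest to MAPKKK20 was 12399 bp away and was assigned to CEJ1 (AT3G50260), also called DEAR1, a DREB-type transcription factor gene of the same AP2/ERF superfamily as ERF115. CEJ1 had 2 peaks, scoring 78.80 (coding 3') at a distance of 12399 bp and 60.33 (intergenic 5') at 14470 bp, and both carried the mark TP that the peak of MAPKKK20 lacked. MAPKKK20 lay 5 places from CEJ1 in the order of protein-coding genes. Of these 3 peaks that of MAPKKK20 had the highest score, and the lower CEJ1 score lay just below the lower quartile of the list.

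The peak nearest to MAPKKK17 was 15206 bp away, labelled intergenic 3' of AT2G32450, with a score of 84.33. On its other side, named after their values were seen, were peaks of AT2G32550 (score 113.64) at 21505 bp and of AT2G32580 at 25735 bp, and the peak of AT2G32580 had the lowest score of the whole list, 50.01. MAPKKK17 had the highest score of these 4. At CPK25 the order was the other way: its own score was 51.25, against 123.55 for the peak of AT2G35920, labelled intergenic 3' and 13577 bp away.

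CBL1 and CPK9 stood further from other peaks. The nearest peak to CBL1 was 56515 bp away and was assigned to ERF-1 (AT4G17500, intergenic 5', score 65.15), followed by that of ERF6 (AT4G17490, coding 3', score 75.90) at 62329 bp. Both encode ERF transcription factors and are named after their values were seen. For CPK9 the nearest peak was 180066 bp away and was assigned to STP4 (AT3G19930, score 64.72), a sugar transporter gene named on the same terms. No other peak lay within 100 kb of CPK9, whereas the median over all peaks was 1 and the upper quartile was 3. None of the 10 protein-coding genes directly beside the 5 genes in gene order was assigned a peak of its own, and at 2.06% of all nuclear protein-coding genes a set of 10 would hold less than 1 with a peak.

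**Figure D4:**
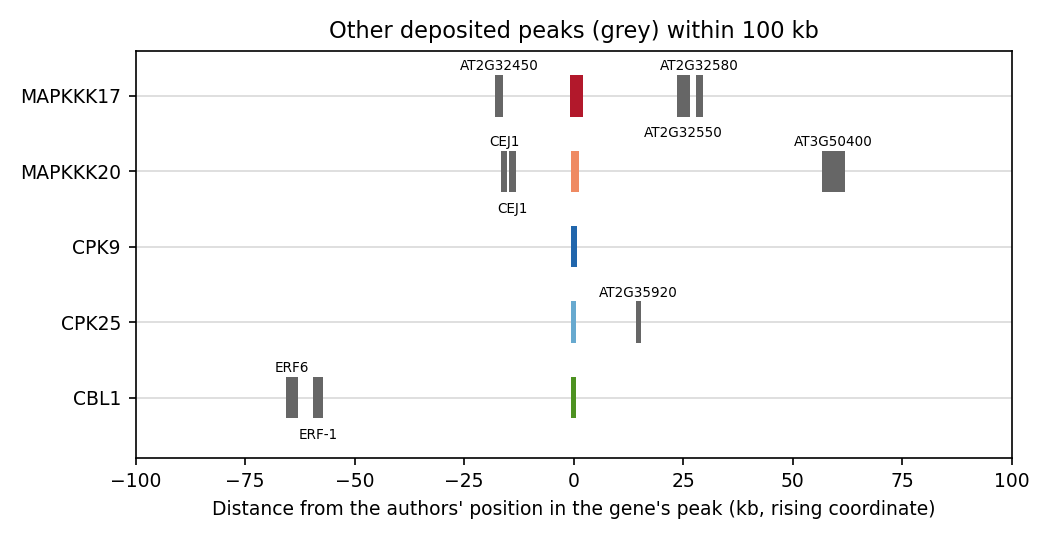
Deposited peaks within 100 kb of the peak of each of the 5 genes, in kb along rising chromosome coordinate from the authors' position in that gene's peak (coloured bars), with other peaks in grey and their assigned gene beside them. MAPKKK20 has the 2 CEJ1 peaks on its left, CBL1 has ERF-1 and ERF6 further off, and CPK9 has no other peak in this range.

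To set the 5 genes beside their families, 129 genes were listed. They are MAPKKK genes of the MEKK type, MKK and MPK genes, and CPK, CDPK-related kinase, CBL and CIPK genes. Other types of MAPKKK and other calcium sensors were not listed, so the counts do not cover them. In the list as a whole 6 genes had a peak (4.65%), beside 2.06% of the 27444 nuclear protein-coding genes. Since 5 of these 6 are the genes chosen for having a peak, nothing is read from that share. The kinase cascade lists had 3 of 51 genes with a peak, and all 3 were among the 21 listed MAPKKK genes of the MEKK type. None of the 10 MKK genes and none of the 20 MPK genes, the lower tiers of the cascade, was assigned a peak. At 2.06% of genes, lists of 10 and 20 would hold less than 1 gene with a peak, so these empty lists do not set MKK or MPK genes apart.

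Beyond the 5, the 1 other listed gene with a peak was YDA (AT1G63700), a MAPKKK known for its roles in the first divisions of the embryo and in stomatal patterning. Its peak lay on chromosome 1 from 23624036 to 23625249, was 1214 bp wide and was labelled intergenic 3', with a score of 69.06 (rank 378). That places it between CPK9 and CBL1 in score and makes it narrower than each of the 5. Like them it lacked the mark TP, and the nearest other peak was 58810 bp away.

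In the calcium lists 3 of 78 genes had a peak, beside 2.06% of all nuclear protein-coding genes, and all 3 are genes chosen for having one. They were 2 of 34 CPK genes (CPK9 and CPK25) and 1 of 10 CBL genes (CBL1). None of the 26 CIPK genes, which encode the kinase partners of the CBL proteins, and none of the 8 CDPK-related kinase genes was assigned one. At 2.06% of genes these lists, too, would hold less than 1 gene with a peak, so they are not set apart. Among peaks scoring at least 100, 1 cascade gene and 0 calcium genes were left, beside 0.656% of all nuclear protein-coding genes. Among the 306 peaks with the highest scores it was 2 and 0, beside 1.04%. With 5' labels only it was 1 cascade gene (MAPKKK20) and 2 calcium genes (CPK9 and CBL1), beside 1.36%.

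Since each peak was assigned to 1 gene, a peak next to a listed gene may have been given to its neighbour. Counting listed genes that directly adjoin a gene with a peak in gene order added 9 genes, named here after their values were seen, and 8 of them were in the calcium lists. With these, 11 of 78 calcium genes (14.1%) and 4 of 51 cascade genes (7.84%) had an assigned or adjacent peak, beside 5.93% of all nuclear protein-coding genes. The 11 include 3 and the 4 include 2 of the genes chosen for having a peak, so part of each share was fixed by that choice. CPK17 adjoined CLT3 (score 128.82), CPK32 adjoined AT3G57540 (score 68.89), CRK4 adjoined CID13 (score 55.09) and CBL6 adjoined SPK1 (score 80.62). CPK21 and CPK23 lie on either side of AT4G04730 (score 59.11), and CPK23 also adjoins AT4G04745 (score 69.19). The neighbours CIPK14 and CIPK15 lie between SAUR21, with peaks scoring 97.11 and 50.78, and AT5G01800 (score 86.89). The added MAPKKK gene was MAPKKK7, beside AGP12 (score 99.83). Gene order says nothing of the distance from the peak to the listed gene, and genes that share a neighbour are not independent, so no call was made from these shares.

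**Figure D5:**
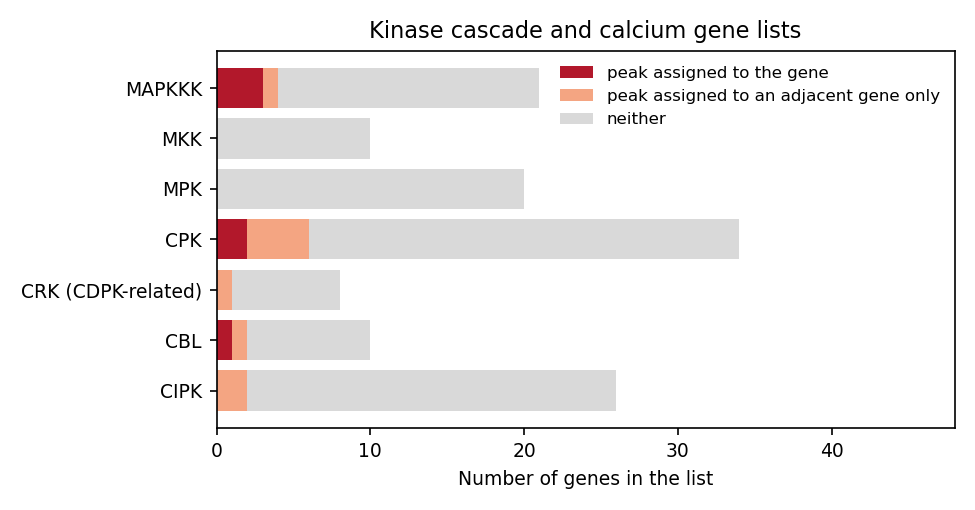
Number of genes (horizontal) in each of the 7 lists, split into those with an assigned peak, those that only adjoin a gene with a peak, and the rest. Assigned peaks are found in the MAPKKK (3 of 21), CPK (2 of 34) and CBL (1 of 10) lists. The MAPKKK list holds the MEKK type only. CPK has the largest number that only adjoin a gene with a peak, 4.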

How the data were processed

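One ERF115-HBH library and 1 mock library of PSB-D cells were purified in tandem on nickel and streptavidin beads and sequenced, per the labels' protocols. The tools named in the submitters' processing notes are MACS 1.4.2, BWA 0.5.9, Picard, CASAVA 1.8.2 and SAMtools 0.1.18, and the build is TAIR10. Not given in the sources used here are parameters, filters and the control used in peak calling. The authors deposited a peak list and an annotated copy for the ERF115-HBH library, with a peak score per peak (not normalised) and a Z score that restates it. The score grows with sequencing depth as well as with enrichment, and depth is unknown.

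The files were joined by peak name, and positions are written 1-based. Of the 608 assigned loci 600 were found in a gene table from NCBI RefSeq (assembly TAIR10.1), used only for names, gene types and gene order. All 129 listed genes were in that table, 103 under the listed symbol, 20 under a synonym and 6 by locus only. The genes described and the lists were chosen with earlier results of these data known. The genes named are the 5, every listed gene with a peak and genes of peaks under 20 kb from theirs; others are marked as named after their values were seen. Distances and ranks were computed with Python 3.11.15 and pandas 2.3.3, and the distance and neighbour code was tested on simulated data. No sequence was used, so the planned searches for the GCC-box in promoters and peaks were not run.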

Additional observations from a re-analysis of the deposited data

How the results depend on the processing

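Among peaks scoring at least 100, the kinase cascade genes with a peak numbered 1 (MAPKKK17), against 3 with all peaks, and the calcium genes 0, against 3. Among the 306 peaks with the highest scores they numbered 2 and 0, with CPK9 at 77.27 just below the lowest score kept, 78.98. With 5' labelled peaks only they numbered 1 and 2, and with adjacent genes 4 and 11. The lists hold 51 cascade and 78 calcium genes and include the 5 chosen for having a peak. Of all nuclear protein-coding genes, 2.06% had a peak, and 0.656% had one scoring at least 100. Among the 306 highest peaks the share was 1.04%, with 5' labels 1.36% and with adjacent genes 5.93%. Member peaks with another peak nearby were 3 under 20 kb, 0 under 10 kb and 3 under 50 kb. Of all peaks, 35.6% had such a neighbour under 20 kb, 22.4% under 10 kb and 57.8% under 50 kb. Of the 5 genes, 2 scored above the median of all peaks, 2 above that of their location label and 3 above that of their chromosome. The comparisons by label and chromosome were chosen after seeing the data. The alternatives for the GCC-box were not run. Leaving out replicates was not possible, and no paired analysis was possible because there is only 1 library in each group. A gene without an assigned peak may have one that this unknown depth could not show.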
